A study of Mus musculus with 10 samples.

Results

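The 10 genes described here are chemokines whose probes gave a signal above background in most files of C2C12 myoblasts: Ccl2, Ccl7, Ccl8, Ccl9, Cxcl1, Cxcl5, Cxcl11, Cxcl12, Cxcl13 and Cx3cl1. They were chosen by measured values of these arrays, both their levels and their differences between the groups, so their values are given as a description and no test of theirs supports anything. The array carried 12 probes for the 10 genes, among 55681 probes in all, and all 10 were among the 13148 genes and transcripts that passed the filter on dim probes. C2C12 is an established mouse myoblast line that proliferates in serum and can differentiate into myotubes. One group was transfected with a mimic of miR-27a-3p, a synthetic double-stranded RNA that acts as the mature microRNA, and the other with a scrambled sequence. Both groups were cells of the same line in serum-containing high-glucose medium, both received 150 nM RNA by Lipofectamine 2000, and both were collected at 72 h. The labels give a transfection efficiency of 60%, so each RNA sample also holds cells that took up little or no RNA. Untreated cells were not analysed here. In RNA from whole cultures, fewer cells with a transcript and less transcript per cell cannot be told apart.

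Chemokines are small secreted proteins that attract cells along a concentration gradient through G protein-coupled receptors. They are named for the spacing of their first cysteines: CC ligands such as Ccl2 mainly attract monocytes and other mononuclear cells, CXC ligands such as Cxcl1 and Cxcl5 attract neutrophils, and Cx3cl1 is made as a membrane-bound protein that can be shed. In injured muscle, chemokines of muscle and stromal cells recruit leukocytes, and Cxcl12 also acts on muscle progenitors. Many chemokine genes are switched on by NF-kappaB, AP-1 or interferon-activated factors, and many of their messages are short-lived.

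A microRNA pairs with messages mainly through its seed, bases 2 to 8. The 2 mature microRNAs below are shown because they have that seed in common; capitals mark it. The sequences are those of RefSeq, at chr8:84208727-84208747 (plus strand) for the first and chr13:63300760-63300780 (plus strand) for the second, both in GRCm38.p6.
miR-27a-3p: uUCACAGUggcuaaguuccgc
miR-27b-3p: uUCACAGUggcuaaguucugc
The complement of the seed, ACTGTGA, was looked for in the sense strand of all 55681 probe sequences and was present in 455 of them (0.817%). Among the 12 chemokine probes it was present in that of Ccl2, in the window below, where capitals mark the match. The window is the last 30 bases of the probe, chr11:81850680-81850709 in mm9, the build of the array files.
Ccl2 probe, 3′ part: gtgtgactcggACTGTGAtgccttaattaa
A probe covers 60 bases of a message, so no match in a probe says nothing about the rest of that message. Of the 103 tested genes whose probe held the match, 3 (2.91%) were lower and 1 (0.971%) was higher by the test described below, against 2.33% and 2.78% of all tested genes, and their median difference was -0.14 against -0.05 over all tested genes.

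The 10 deposited files came from 1 slide. By their headers, the 10 labelled replicates were 2 scans each of 5 array positions, 3 with mimic RNA and 2 with scramble RNA, and files of the same position also had 21 to 75 non-uniform spots in common while all other pairs of files had none. Each pair of scans was averaged into 1 array, which leaves 3 mimic and 2 scramble arrays. Nothing in the labels says whether these were separate cultures, so p-values measure only the spread between these arrays. Between 27% and 35.3% of the non-control spots of a file were well above background, with median signals of 428 to 783 among them, and no spot was saturated. A level below is log2 of the processed signal minus that array's 75th percentile of the probes detected on all files, so a level of 0 is the brightness of that percentile; levels of different probes are not comparable. A difference is the mean level of the mimic arrays minus that of the scramble arrays, with its standard error from limma.

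Under the mimic, 7 of the 10 chemokines were lower, 2 were higher and 1 did not pass the threshold (limma, Benjamini-Hochberg adjusted p under 0.05). Over all 13148 genes and transcripts 672 (5.11%) passed it, 306 (2.33%) lower and 366 (2.78%) higher. Since these differences were among the values that chose the chemokines, nothing is read from the comparison with that background. The median difference of the 10 genes was -1.24, and the 9 past the threshold differed by 1.77-fold to 3.46-fold. All mimic arrays lay below both scramble arrays for 7 genes and above them for 3, against 25.8% and 19.8% of all tested genes in those directions. None of the 9 calls was kept when any 1 of the 3 mimic arrays was left out. No difference changed its sign under any of 14 alternatives, but several of these could not change it. Leaving out an array cannot reverse a sign where the groups do not overlap. Taking the files as separate arrays, or the scan as a block, leaves the differences as they were. With the percentile taken over all probes in place of the detected ones, the median of all genes moved from -0.05 to 0.11, the share of calls that were lower moved from 45.5% to 31.8%, and 4 chemokines were called lower and 2 higher.

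**Figure D1:**
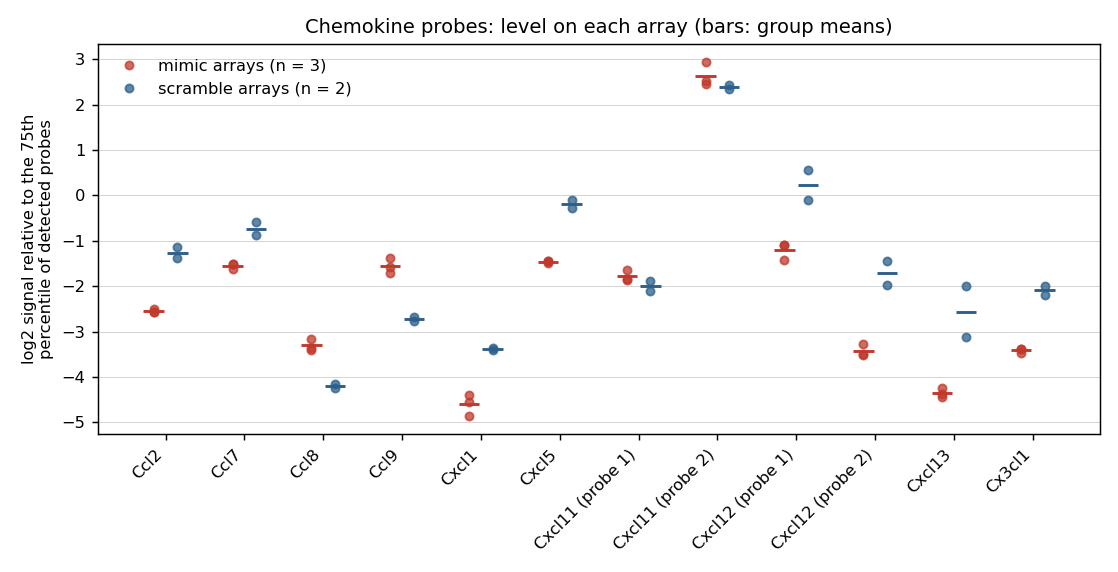
Level of each chemokine probe (log2 signal relative to the 75th percentile of the array) on the 3 mimic and 2 scramble arrays. Points are arrays and short bars are group means. Of Cxcl12, probe 1 is annotated to variant 3 and probe 2 to variant 1. The mimic points lie below the scramble points for Ccl2, Ccl7, Cxcl1, Cxcl5, Cxcl12, Cxcl13 and Cx3cl1 and above them for Ccl8 and Ccl9; the Cxcl11 groups nearly touch.

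Ccl2, the main attractant of Ccr2-bearing monocytes, was measured by a probe at chr11:81850650-81850709 (mm9, as are all probe positions that follow). Its levels were -2.51, -2.56 and -2.57 with the mimic and -1.15 and -1.38 with the scramble. The mimic arrays were low and close together, and the groups did not overlap. The means were -2.55 ± 0.03 (SD, n = 3) and -1.26 ± 0.17 (SD, n = 2), a difference of -1.29 ± 0.15 (SE), or 2.44-fold lower under the mimic. This probe was printed 10 times on each array, which gives a direct view of the error of a single spot. Within a file the log2 signals of the 10 spots had an SD of 0.087 to 0.174. The file means ranged from 376.2 to 543.4 signal units in the mimic files and from 766.9 to 1165 in the scramble files. The brightest mimic spot was at 600.3 and the dimmest scramble spot at 616.4. These signals are not scaled between files, and the spots are copies within an array, so they add nothing to the number of arrays.

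Ccl7, another monocyte attractant, was measured at chr11:81860656-81860715, and the probes of Ccl2 and Ccl7 are 9946 bases apart. Its levels were -1.63, -1.51 and -1.52 with the mimic and -0.88 and -0.58 with the scramble. The mimic arrays were again all low, with no overlap. The difference of -0.82 ± 0.16 (1.77-fold lower) was the smallest in size of the 9 past the threshold. It was not called with the first scans alone, with the percentile over all probes or without scramble array 2.

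Ccl8, an attractant of monocytes and several lymphocyte types, lies in the same run of genes but had the other sign. At chr11:81930108-81930167 its levels were -3.15, -3.36 and -3.40 with the mimic and -4.16 and -4.25 with the scramble. The mimic arrays were the high ones and the groups did not overlap. The difference was 0.90 ± 0.15, or 1.87-fold higher, but the probe was dim: 3 of the 4 scramble files and all 6 mimic files had it well above background. With the background corrected by normexp the difference was 0.46 and was not called. Nor was it called with the second scans alone or without scramble array 2.

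Ccl9, a CC ligand that acts through Ccr1, was measured at chr11:83388223-83388282 and was well above background in all 10 files. Its levels were -1.57, -1.39 and -1.70 with the mimic and -2.69 and -2.78 with the scramble. The lowest mimic array stood clear of both scramble arrays. The difference was 1.18 ± 0.16, or 2.26-fold higher, and its call was lost only where a mimic array or the filter on dim probes was left out.

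In the RefSeq gene order the stretch from Ccl2 to Ccl8 holds 5 genes: Ccl2, Ccl7, Ccl11, Ccl12 and Ccl8. The signs thus differed within one stretch, with Ccl2 and Ccl7 lower and Ccl8 higher. Of the genes between them, Ccl12 was well above background in no file, and Ccl11, an attractant of eosinophils, in 2 of the 4 scramble files and none of the 6 mimic files. The level of Ccl11 was -4.6 on scramble array 1. On scramble array 2 it was -6.8, among the mimic arrays at -7.8, -6.7 and -6.9.

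Cxcl1 and Cxcl5 both attract neutrophils through Cxcr2. The Cxcl1 probe at chr5:91321845-91321904 had levels of -4.54, -4.87 and -4.39 with the mimic and -3.40 and -3.37 with the scramble. The groups did not overlap, and the mimic arrays, which were close to background, spread more than the scramble arrays. The means were -4.60 ± 0.25 and -3.39 ± 0.02 and the difference -1.22 ± 0.19, or 2.32-fold lower. Of the mimic files, 5 of 6 had the probe well above background, and with normexp the difference was -0.83. Cxcl1 was not called without scramble array 2.

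The Cxcl5 probe was well above background in all 10 files. At chr5:91190490-91190549 its levels were -1.45, -1.44 and -1.48 with the mimic and -0.11 and -0.28 with the scramble. All 3 mimic arrays were lower than both scramble arrays by more than the whole spread of either group. The difference was -1.27 ± 0.14, or 2.40-fold lower. The RefSeq stretch from Cxcl5 to Cxcl1 holds 6 genes; of the 4 between them, Pf4, Cxcl3 and Cxcl15 were well above background in no file and Ppbp in 1 mimic file.

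Cxcl12, which signals through Cxcr4 and binds Ackr3, was read by 2 probes annotated to different transcript variants. Whether each probe reads its variant alone was not tested. The probe of variant 3 at chr6:117131227-117131286 had levels of -1.10, -1.09 and -1.42 with the mimic and 0.56 and -0.10 with the scramble. The scramble arrays were the high ones, and they differed more from each other than the mimic arrays did. The difference was -1.43 ± 0.24, or 2.70-fold lower, and Cxcl12 was not called with the percentile over all probes. The probe of variant 1 at chr6:117125026-117125085 had levels of -3.28, -3.51 and -3.49 with the mimic and -1.45 and -1.97 with the scramble. Its groups did not overlap either, and scramble array 1 was the higher of the pair with both probes. The difference was -1.72 ± 0.20, or 3.29-fold lower, so both probes had the same sign.

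Cxcl13, the B cell attractant that acts through Cxcr5, had the biggest difference of the 10 genes and also the least steady one. At chr5:96389861-96389920 its levels were -4.25, -4.37 and -4.44 with the mimic and -2.0 and -3.12 with the scramble. The groups did not overlap, but the scramble arrays lay far apart. The difference was -1.79 ± 0.33, or 3.46-fold lower, and was -1.23 without scramble array 1 and -2.35 without scramble array 2. Scramble array 1 gave levels of -2.59 and -1.42 in its 2 scans, a change of 1.17, whereas no other chemokine probe changed by more than 0.46 between the scans of any array. The signals behind these levels were 445.9 and 843.3. Cxcl13 was not called with the second scan alone, quantile normalisation, the deposited value table, the percentile over all probes or the scan as a block.

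**Figure D2:**
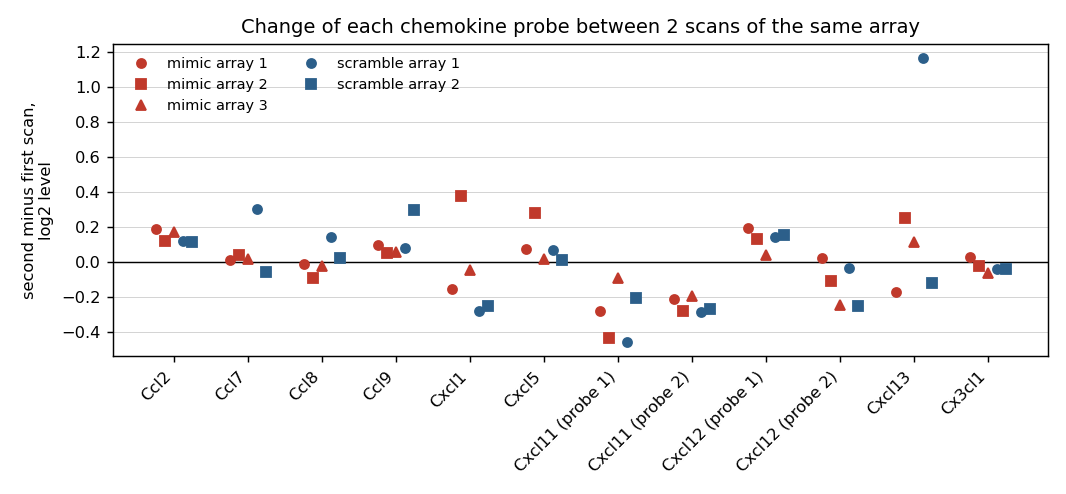
Change in level between the 2 scans of each of the 5 array positions (log2) for each chemokine probe; points are arrays, coloured by group. The Cxcl13 point of scramble array 1 stands at 1.17, and all other points lie within 0.46 of 0.

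Cxcl11, a ligand of Cxcr3 that is induced by interferon, was the 1 gene not called. Its probe at chr5:92788640-92788699 had levels of -1.65, -1.86 and -1.83 with the mimic and -2.10 and -1.89 with the scramble, a difference of 0.22 ± 0.16. The second probe, at chr5:92788567-92788626, had levels of 2.46, 2.52 and 2.95 against 2.35 and 2.44, a difference of 0.25 ± 0.20. With both probes the mimic arrays lay just above the scramble arrays, by a gap no bigger than 0.03. The second probe may not read Cxcl11 alone: it had a stretch of 20 bases in common with 22 of the 32851 RefSeq promoter windows and with 7 other probes, and only 208 of the 55681 probes (0.374%) had such stretches in common with as many windows. The stretch found in most of them is shown because it resembles the B1 short interspersed repeat, which is scattered through the mouse genome and its transcripts.
Cxcl11 second probe, most frequent stretch: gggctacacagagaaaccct
The other 11 chemokine probes had no such stretch in common with any promoter window. How much of the Cxcl11 signal came from other transcripts was not tested.

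Cx3cl1, the membrane-bound ligand of Cx3cr1, was measured at chr8:97306185-97306244. Its levels were -3.39, -3.38 and -3.47 with the mimic and -2.19 and -1.99 with the scramble. The mimic arrays were all low and the groups stood well apart. The difference was -1.32 ± 0.14, or 2.50-fold lower, with -1.33 in the first scans and -1.31 in the second.

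**Figure D3:**
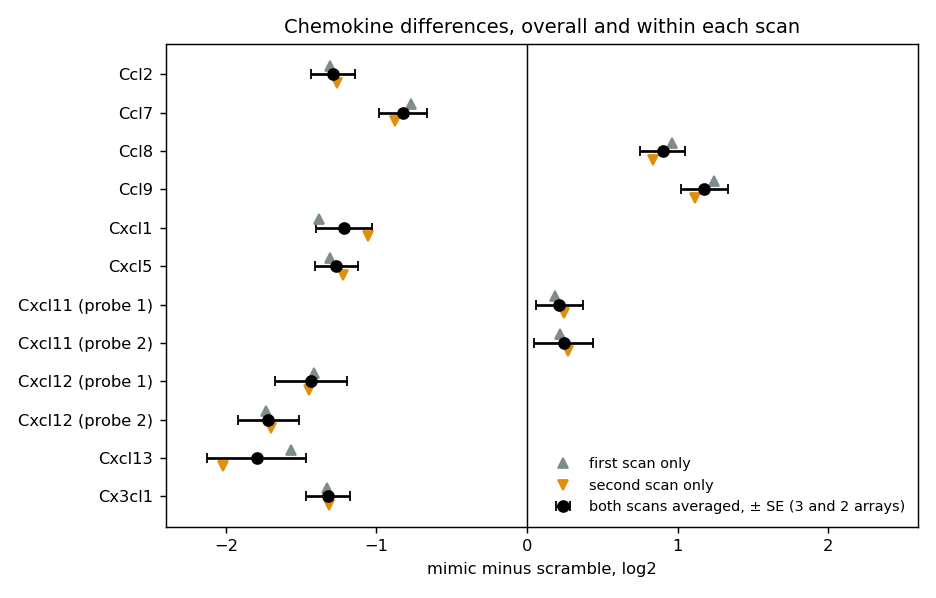
Difference in level of each chemokine probe, mimic minus scramble (log2), with its SE from limma (bars) and the values from the first and the second scans alone (triangles). The differences run from -1.79 for Cxcl13 to 1.18 for Ccl9, and both scans give each probe the same sign.

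Of the 10 genes, 7 were well above background in all 10 files, and Ccl8, Cxcl1 and Cxcl13 missed it in 1 file each. Set among all 13148 genes and transcripts by the size of the difference in either direction, Cxcl13 had 1.19% of them above it, Cxcl12 2.22%, Cx3cl1 2.84% and Ccl2 3.04%. Further down came Cxcl5 with 3.19%, Cxcl1 with 3.61%, Ccl9 with 3.91%, Ccl8 with 8% and Ccl7 with 9.91%. Cxcl11, represented by its second probe, was in the middle, with 56.6% above it. Cxcl12 was represented by its probe of variant 3, and its probe of variant 1 had a bigger difference, -1.72.

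**Figure D4:**
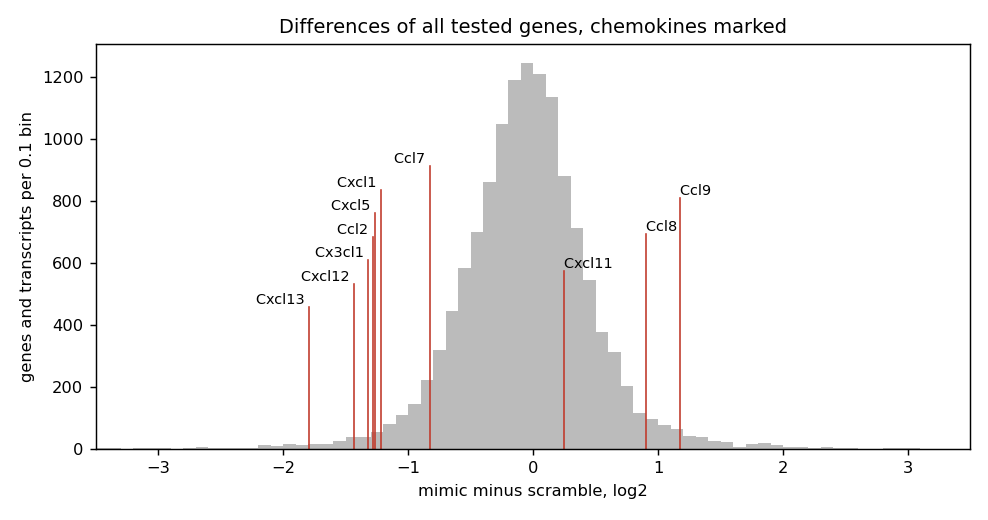
Distribution of the mimic minus scramble difference (log2) over the 13148 tested genes and transcripts in bins of 0.1, as counts per bin, with the 10 chemokines marked by lines; differences beyond the axis limits are not drawn. The median of all is -0.05; 7 chemokines lie in the left tail, Ccl8 and Ccl9 in the right tail and Cxcl11 near the centre.

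RefSeq promoter windows were at hand for 6 of the 10 genes: Ccl8, Ccl9, Cxcl1, Cxcl12, Cxcl13 and Cx3cl1. The 250 bases before the start were searched on both strands for TATAAA, the AP-1 motif TGANTCA, the interferon-response motif (GAAA, any 2 bases, GAAA) and the NF-kappaB decamer; these were present in 12.4%, 6.75%, 2.98% and 7.25% of 32851 windows. The parts that held a match are shown for a lower gene with an NF-kappaB match and for both higher genes, with the matches in capitals, in GRCm38.p6. They lie at chr5:90891159-90891199 (plus strand), chr11:82115138-82115173 (plus strand) and chr11:83578647-83578875 (minus strand).
Cxcl1: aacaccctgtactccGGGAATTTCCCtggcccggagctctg
Ccl8: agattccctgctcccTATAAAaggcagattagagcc
Ccl9: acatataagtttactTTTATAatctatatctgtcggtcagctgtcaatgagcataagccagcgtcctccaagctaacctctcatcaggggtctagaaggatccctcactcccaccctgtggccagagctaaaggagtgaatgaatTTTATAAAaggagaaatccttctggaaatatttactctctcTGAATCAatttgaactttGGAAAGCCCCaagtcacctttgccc
In Cxcl1 the capitals are 2 overlapping NF-kappaB matches, 1 on each strand, 71 to 61 bases before the start. Ccl8 had TATAAA 32 to 27 bases before the start. In Ccl9 the first 2 capital runs hold 3 TATAAA matches, and the third is the AP-1 match 53 to 47 bases before the start. The last run is an NF-kappaB match 35 to 26 bases before the start, read on the strand opposite to the one shown. NF-kappaB matches were thus present in 1 gene that was lower and 1 that was higher. Cxcl13 and Cx3cl1 had TATAAA, Cxcl12 had none of the 4 motifs, and the interferon-response motif was in none of the 6. A match describes the letters and does not show that a factor binds there.

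The rest of the chemokine family was near background. Of 27 other chemokines with a probe, 22 were well above background in no file, among them Cxcl2, Cxcl9, Cxcl10, Ccl5 and Ccl20. Only Ccl25, a thymic and gut chemokine, passed the filter, and its difference was 0.23 ± 0.43 (limma adjusted p = 0.76), with scramble arrays at -2.97 and -4.53 on either side of the mimic arrays at -3.57, -3.44 and -3.55. No gene of the list was called, also at an unadjusted p under 0.05, which 14.2% of all tested genes passed in the lower direction and 11.1% in the higher.

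The receptors of these ligands were mostly not detectable. Ccr1, Ccr2, Cxcr2, Cxcr4, Cxcr5 and Cx3cr1 were well above background in no file and Cxcr3 in 1 mimic file. The exception was Ackr3, an atypical receptor that takes up Cxcl12, which was well above background in all files, with levels of 0.20, 0.23 and 0.26 with the mimic and -0.45 and -0.14 with the scramble. Its groups did not overlap, but the difference of 0.53 ± 0.15 did not pass the threshold (limma adjusted p = 0.11). Of 25 receptors 2 were tested, Ackr3 and Ccr9, and limma called 0 (0 lower and 1 higher at an unadjusted p under 0.05).

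Among 30 cytokines, receptors and adaptors that drive chemokine genes, 15 were tested and 2 passed the threshold, against 5.11% of all tested genes. The list median was -0.23 against -0.05 for all genes, and at an unadjusted p under 0.05 there were 6 lower and 2 higher genes, where 14.2% and 11.1% of all genes stood. The 2 calls and the 2 higher genes both include Tlr2, which passed the filter only through the mimic files. Il1r1, the signalling receptor for interleukin 1, had levels of -2.93, -3.08 and -2.97 with the mimic and -2.16 and -1.81 with the scramble. It fell by 1.01 ± 0.16 (limma adjusted p = 0.029), with no overlap of the groups, but was not called when any 1 mimic array was left out. For Tlr2, a receptor for bacterial lipoproteins, all 6 mimic files but none of the 4 scramble files had the probe well above background, and it was at least 2.1-fold higher under the mimic. It entered the test only through the mimic files, so its passing the threshold is no support for the difference. That bound sets the mean of the mimic arrays against the lowest detectable signal of each scramble array. Ticam1, the Tlr3 and Tlr4 adaptor, differed by -1.05 ± 0.24 (limma adjusted p = 0.065), and Il17rc, a subunit of the interleukin 17 receptor, by -0.61 ± 0.14 (0.073). The ligands Il1a, Il1b, Il6, Tnf and Il17a were well above background in no file.

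None of the 23 tested genes of the NF-kappaB pathway passed the threshold (limma; 3 lower and 1 higher at an unadjusted p under 0.05, against 14.2% and 11.1% of all genes), and their median was -0.13. The subunits Rela at 0.33 ± 0.27 and Nfkb2 at -0.72 ± 0.33 and the feedback inhibitor Nfkbia at -0.25 ± 0.14 had adjusted p of 0.47, 0.23 and 0.30 by limma. Nfkb1 was well above background in 2 mimic files only.

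Of the factors that bind AU-rich chemokine messages and set their decay, 9 were tested and none passed the threshold (limma; 2 lower and 0 higher at an unadjusted p under 0.05), with a median of 0.08. The unadjusted counts here and for the lists that follow stand beside 14.2% lower and 11.1% higher over all genes. Hnrnpd differed by -0.85 ± 0.18 (limma adjusted p = 0.060) and Elavl1 by -0.17 ± 0.20, and Zfp36 was well above background in no file. Of the proteases that trim or shed chemokines, 7 were tested and none passed (limma; 1 lower and 1 higher unadjusted), with a median of -0.29. Plau differed by -0.91 ± 0.19 (limma adjusted p = 0.057) and Adam10, a sheddase of Cx3cl1, by 0.48 ± 0.16 (0.15). Of 29 interferon-induced genes, 10 were tested and none passed (limma; 1 lower and 1 higher unadjusted), with a median of 0.36; Isg20 differed by 1.04 ± 0.23 (limma adjusted p = 0.060), while Ifit1, Irf7, Rsad2 and Mx1 were well above background in no file.

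**Figure D5:**
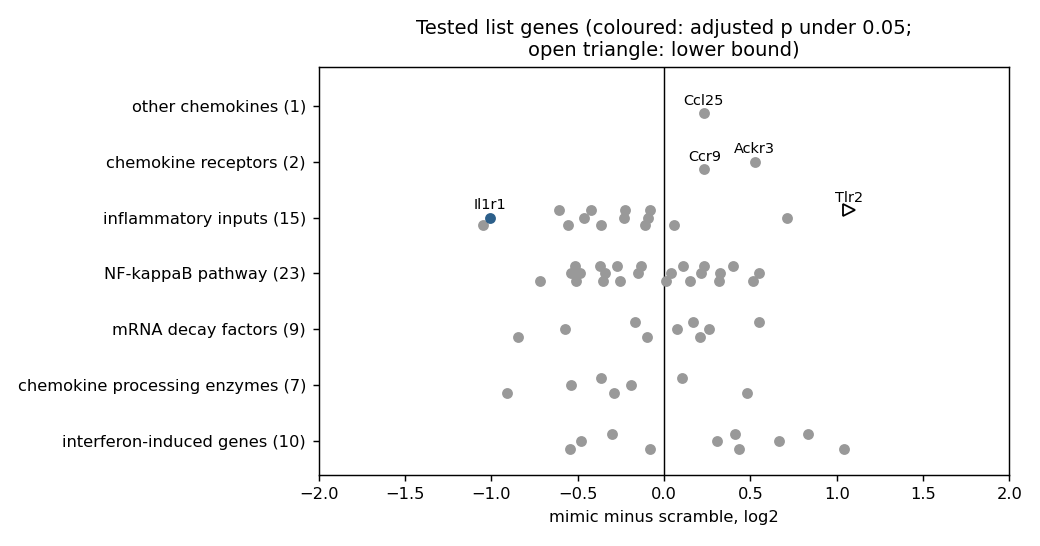
Difference in level, mimic minus scramble (log2), of each tested gene of the 7 gene lists around the chemokines; points are genes and those past the limma threshold are coloured. Il1r1 at -1.01 is coloured; Tlr2, drawn as an open triangle at its lower bound of 2.1-fold, also passed but entered the test only through the mimic files.

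Marker genes were read for the cell types such a culture could hold. The myoblast markers Cdh15, Des, Itga7, Myod1, Vcam1 and Ncam1 were detected in all files, Myf5 in 1 mimic file only and Pax7 in none. None of these 6 passed the threshold (limma; 4 lower and 0 higher unadjusted, against 14.2% and 11.1% of all genes), with Vcam1 at 0.24 ± 0.20 and Ncam1 at 0.57 ± 0.25 on the other side of 0, and their summed level, in units of the 75th percentile, was 18.6 to 20 on the mimic arrays and 22.2 to 29.1 on the scramble arrays. All 6 markers of differentiating myocytes were tested and all 6 were lower. Of these, 4 passed the threshold, against 2.33% of all tested genes in that direction. The differences were -2.10 ± 0.21 for Myog, -2.44 ± 0.29 for the fusion protein gene Mymk, -1.48 ± 0.21 for Acta1 and -1.40 ± 0.22 for Myh3 (limma adjusted p of 0.0092, 0.013, 0.021 and 0.027). Tnnt3 at -1.38 ± 0.35 and Ckm at -2.03 ± 1.21 did not pass, and mimic array 3 had Ckm at -6.27. The summed level of the 6 was 6.02 to 7.99 on the mimic arrays and 21.4 to 23.4 on the scramble arrays. A summed level weighs its brightest probes most, such as Itga7 for myoblasts and, below, Itgam for leukocytes and Col1a2 and Dcn for fibroblasts. The myocyte markers thus had the same direction between the groups as the 7 lower chemokines, and their part in those differences was not tested.

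Of 13 markers of macrophages and other leukocytes, 5 were well above background in no file, among them Ptprc, Adgre1, Lyz2 and Tyrobp, while Itgam, Cd68 and Cd14 were well above it in all 10 files. The summed level of the 13 was 1.18 to 1.39 on the mimic arrays and 1.32 to 1.47 on the scramble arrays, and none of the 6 tested passed (limma; 0 lower and 1 higher unadjusted, the latter Cd68 at 0.53 ± 0.14). Of 7 endothelial markers 6 were in no file, Pecam1 and Cdh5 among them, and of 5 epithelial markers 4 were in no file, with Epcam and Cdh1 among them. Of 7 fibroblast markers, Thy1 and Dpt were well above background in no file and Pdgfra in 1 mimic and 1 scramble file. The summed level of the 7 was 21.3 to 23.6 on the mimic arrays and 17.8 to 19.6 on the scramble arrays. Of the 4 tested (Col1a1, Col1a2, Dcn and Lum) 0 passed by limma. At an unadjusted p, 0 were lower and 2 higher, against 11.1% of all genes in the higher direction. The part of these markers in the higher chemokines was not tested.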

How the data were processed

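The authors deposited 1-colour Agilent scanner files with a processed signal (intensity) per spot, background-subtracted by Feature Extraction, which is version 12.0.0.7 per the file headers and 10.7.3.1 per the submitters' processing notes; probe positions are on mm9 per the file headers. Control and outlier-flagged spots were dropped, spots of a probe were averaged, log2 was taken, and each array's 75th percentile over probes detected on all files was subtracted. The 2 scans of a position were averaged. A filter kept the 16772 probes that stood well above background in 4 or more of the 10 files, the brightest probe standing for a gene, and 13148 genes and transcripts were fitted with limma 3.58.1 in R 4.3.3 (lmFit, eBayes; 3 residual degrees of freedom, Benjamini-Hochberg adjustment, threshold 0.05). The authors' deposited value table (log2) served as an alternative. Names came from RefSeq by accession for 28026 probes, by symbol for 3418 and by older symbol for 295; 23942 kept the file's name. The fit was tested on simulated data.

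The chemokines and the gene lists were chosen with earlier results of these data known. The rule for named genes was every chemokine probe, the chemokines' receptors and each list gene past the threshold; other list genes were named after their values were seen. The number of arrays limits the precision.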

Additional observations from a re-analysis of the deposited data

How the results depend on the processing

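No difference of a chemokine probe changed its sign under 14 alternatives, though several of them, such as leaving out an array, could not change it. Counts of calls did move. With the 10 files as separate arrays 4525 genes were called, against 672, and of the lists 8 NF-kappaB genes, 9 inflammatory inputs, 5 interferon-induced genes, 4 mRNA decay factors, 2 processing enzymes and 1 receptor. Blocking on the scan, with position as a random effect, gave 1467 calls, with 4 inputs and 1 gene in each of the other lists but other chemokines. With the replicate block (10 files, replicate number as a block) 1954 were called, with 2 NF-kappaB genes, 6 inputs and 1 each of interferon-induced genes, decay factors and enzymes; the correlation of same-numbered files was -0.32 to 0.35, over 0.1 for 1 of 4 numbers, and 1 of 4 correlated best with its own number, so the files have only a number in common. With no filter on dim probes 17 genes were called, 0 of them chemokines or inputs. With trend and robust eBayes, and with probes above background in all files, 1 enzyme, 1 interferon-induced gene and 1 decay factor were called; with the first scan 1 enzyme, with normexp 1 decay factor and with the percentile over all probes 1 receptor. Leaving out 1 array gave 47 to 4355 genes, 0 to 9 chemokines, 0 to 10 NF-kappaB genes, 0 to 6 inputs, 0 to 6 interferon-induced genes, 0 to 4 enzymes, 0 to 3 decay factors and 0 to 1 other chemokines. The lowest counts came without a mimic array, the highest without scramble array 1, and a group left with 1 array is assumed to vary like the other. Of the 9 chemokine calls, 8 were kept with quantile normalisation, the value table, the first scan, the scan block or normexp, 7 with the second scan and 6 with probes above background in all files, where Ccl8, Cxcl1 and Cxcl13 were not tested. Cxcl1, Ccl8 and Cxcl13 were not well above background in 1 file each.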
